A study of Mus musculus with 12 samples.

Results

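The STAT and JAK family was followed through the 3 deposited files of a study of inflammatory mouse macrophages. Its 9 members, chosen by name, were the transcription factors Stat2, Stat3, Stat4, Stat5a, Stat5b and Stat6 and the kinases Jak1, Jak2 and Tyk2, of 27013 genes in the expression table. All 9 were among the 10778 genes for which the authors gave an adjusted p. The macrophages were grown from C57BL/6 bone marrow of wild-type (WT) mice and of Ythdf2 conditional knockout (cKO) animals. Ythdf2 encodes a reader of N6-methyladenosine (m6A) that promotes decay of marked mRNA. The driver of the deletion was not given in the sources used here. Cells of both genotypes had 7 days in M-CSF at 20 ng/ml. For 24 hours they then received LPS at 100 ng/ml together with interferon gamma at 20 ng/ml, which gives the M1 type. The 12 libraries form 6 groups of 2: m6A immunoprecipitates and their inputs for WT and for Ythdf2 cKO, and YTHDF2 immunoprecipitates and their inputs for WT. Whether the 2 replicates of a group were separate animals or cultures is unstated in the labels, and p-values measure only the spread between these libraries, which may be technical.

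The receptors of many cytokines have no kinase of their own. Janus kinases (JAKs) bound to their tails phosphorylate the receptor when a ligand arrives, STAT proteins dock there, are phosphorylated in turn, pair up and enter the nucleus to switch on target genes. In macrophages this route carries the signals of interferons, of IL-6 and IL-10, of GM-CSF and of IL-4 and IL-13, and SOCS proteins made in response shut it down. Both LPS, through the interferon beta it induces, and interferon gamma act on it.

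None of the files holds a value per library, so the depth of each library is unknown and the spread between replicates enters only through the standard error of the authors' comparison. That table does not say which genotype is the numerator. For Ythdf2 itself the Wald test of the authors' deposited table gave a log2 fold change of 1.10 ± 0.16 (SE) and an adjusted p of 2.1e-09. A positive value is called the side of Ythdf2 below. The phrase names a direction only, and which genotype it stands for was not settled here. Of the markers found in the table, an adjusted p was given for 10 of 10 of macrophages, 4 of 5 of fibroblasts and stroma, 3 of 8 of neutrophils, 1 of 5 of T and NK cells, 1 of 5 of B cells, 0 of 5 of dendritic cells, 0 of 2 of mast cells and 0 of 4 of erythroid cells. Cd3e, which defines T cells, had a mean normalized count of 0.54 in the authors' deposited table. Cd4, the T and NK cell marker with an adjusted p, had a mean normalized count of 249. Its log2 fold change was 0.79 ± 0.25, with an adjusted p of 0.0622 by the Wald test of the authors' deposited table. In bulk samples, fewer cells of a type and less RNA per cell cannot be told apart.

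3 short sequences come from RefSeq windows of the GRCm38.p6 build (250 bases before to 50 after a transcript start) and are shown because they hold an interferon-type element or lie in an m6A peak. All 9 members had a window, 12 windows in all. The first pair hold the interferon response element in the form GAAANNGAAA, searched on both strands and set in capitals (in Stat2 it reads on the strand opposite to the one printed); it is the kind of element bound by the STAT2-containing complex ISGF3. The third is the start of the Stat6 transcript, which lies in an m6A peak described below; its capitals mark the 1 match in the first 50 bases to the m6A consensus NNACN with A, G or T first, A or G second and A, C or T last.
Stat2, chr10:128270266-128270295, plus strand: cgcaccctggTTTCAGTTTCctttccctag
Stat4, chr1:52008133-52008162, plus strand: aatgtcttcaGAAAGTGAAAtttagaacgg
Stat6, chr10:127642986-127643015, plus strand: gagaagccggAAACAgcaggccggggcagc

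The Stat2 element began 222 bases before the start and the Stat4 element 97 bases before the start of the second of 2 Stat4 windows. Of the 12 member windows, 2 held GAAANNGAAA, against 3.44% of all 32851 windows. The gamma-activated sequence TTCNNNGAA, which reads the same on both strands, was in 0 of the 12 member windows and in 8.3% of all windows. The m6A consensus was in the 50 bases after the start in 54.4% of all windows, the one of Stat6 among them. A match describes letters only.

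No STAT or JAK passed the test between the genotypes: 0 of 9 had an adjusted p under 0.05 by the Wald test of the authors' deposited table, where 2.32% of all tested genes passed, namely 1.76% toward Ythdf2 and 0.557% away from it. At an unadjusted p under 0.05 there was 1 member, Stat2, against 9.99% of all tested genes. Values above 0 were found for 5 members and values below 0 for 4, and 48.7% of all tested genes lay above 0. The median of the members was 0.09, beside −0.01 for all tested genes. The 95% intervals below were computed from the deposited fold change and standard error. For the 8 members other than Stat4 they ran from 0.708-fold at the lowest bound to 1.41-fold at the highest, so a doubling or halving of any of these RNAs lies outside its interval.

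**Figure D1:**
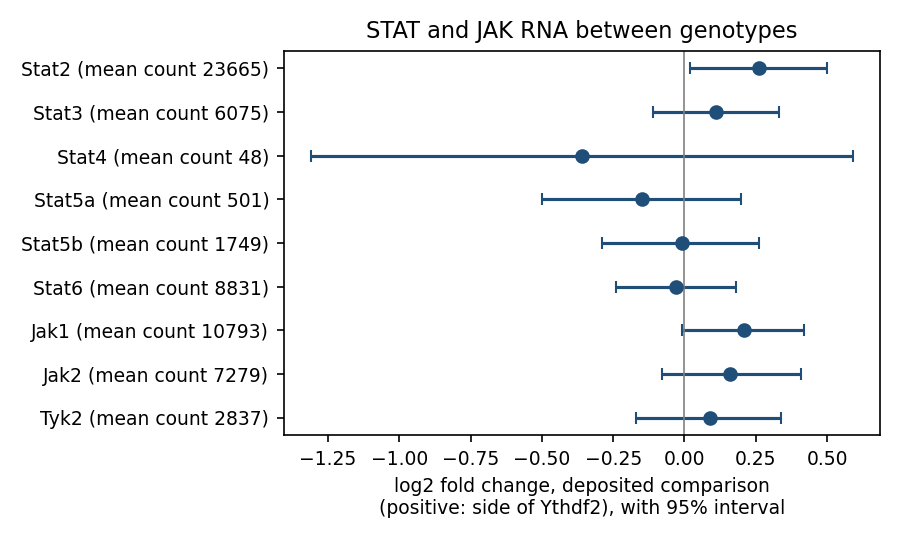
Log2 fold change between genotypes (horizontal axis, positive on the side of Ythdf2) for each of the 9 STAT and JAK genes, with points for the deposited estimate and bars for the 95% interval. The interval of Stat2 alone lies above 0, from 0.02 to 0.50 (adjusted p 0.421), and that of Stat4, at a mean normalized count of 48.4, is the widest, from −1.31 to 0.59.

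Stat2, which carries type I interferon signals as part of ISGF3, lay farthest to the side of Ythdf2. The authors' deposited table gave it 0.26 ± 0.12, or 1.19-fold with a 95% interval of 1.01 to 1.41, an unadjusted p of 0.0349 and an adjusted p of 0.421. Its value was higher than that of 89.1% of tested genes. For Stat3, which acts after IL-6 and IL-10, the authors' deposited table gave 0.11 ± 0.11 and an adjusted p of 0.911, and the interval was 0.926-fold to 1.25-fold. Stat6, the factor of IL-4 and IL-13 signals, had −0.03 ± 0.11 and an adjusted p of 0.997 by the authors' deposited table, and an interval of 0.846-fold to 1.13-fold. Mean normalized counts in the authors' deposited table were 23665 for Stat2, 6075 for Stat3 and 8831 for Stat6. These depend on transcript length and serve here as read depth, not as levels to compare between genes.

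For Stat5a and Stat5b, closely similar factors that act after GM-CSF, the authors' deposited table gave −0.15 ± 0.18 and −0.01 ± 0.14, at adjusted p of 0.943 and 1.0. Reads from their shared stretches can be assigned to either, and how the authors counted them is unstated. Stat4, which conveys IL-12 signals in T and NK cells, had −0.36 ± 0.49 and an adjusted p of 0.955 by the authors' deposited table. Its mean normalized count of 48.4 is close to the lowest of any tested gene, 48.0, in the authors' deposited table. Its interval ran from 0.403-fold to 1.51-fold, so a 2-fold difference away from Ythdf2 lies within it.

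All 3 kinases had values above 0 and none passed. Jak1, which serves the receptors of interferons and of the IL-6, IL-10 and IL-4 families, had 0.21 ± 0.11, an unadjusted p of 0.064 and an adjusted p of 0.562 by the authors' deposited table. For Jak2, the partner of Jak1 at the interferon gamma receptor and the kinase of the GM-CSF receptor, the authors' deposited table gave 0.16 ± 0.13 and an adjusted p of 0.819. Tyk2, the partner of Jak1 at the type I interferon receptor, had 0.09 ± 0.13 and an adjusted p of 0.968 by the authors' deposited table. Their intervals were 0.992-fold to 1.34-fold, 0.944-fold to 1.33-fold and 0.889-fold to 1.27-fold. From the highest to the lowest value the members ran Stat2, Jak1, Jak2, Stat3, Tyk2, Stat5b, Stat6, Stat5a and Stat4. The 95% intervals overlapped in all 36 pairs of members, neighbours in this order included.

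m6A peaks in WT macrophages were listed in 5 of the 9 members, Stat2, Stat3, Stat6, Jak1 and Jak2, with 9 peaks among them. Over all tested genes 45.4% had at least 1 m6A peak, and the share rose with mean count, from 10.9% in the lowest of 5 equal bins of genes to 67.8% in the highest. The 5 members with a peak were all in the highest bin, which also held Tyk2, a gene with none. Stat5b, Stat5a and Stat4, also without a listed m6A peak, were in bins 4, 3 and 1, counted from the lowest. The m6A list gives no level or p per peak.

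Stat2 carried 3 m6A peaks, a number reached by 21.1% of genes with a peak. All lay at the 3′ end of the gene (chromosome 10, 128270498 to 128292853, mm10). The first, from 128290927 to 128291723, crossed the end of the coding sequence and had 350 of its 797 bases of genomic span in the 3′ UTR. The second covered 50 bases from 128291949 and the third ran from 128292399 to 128292848, both wholly in the 3′ UTR. Jak1 (chromosome 4, 101151974 to 101265282, minus strand) had 1 peak of 425 bases wholly in the 3′ UTR, from 101152992 to 101153416. Its other peak, from 101164525 to 101166565, covered 2041 bases of genomic span and lay outside the 3′ UTR. Jak2 (chromosome 19, 29251803 to 29313095) had 1 peak, from 29312476 to 29313050, which stopped 45 bases short of the end of the gene.

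Stat6 (chromosome 10, 127642955 to 127660987) was marked at both ends. Its larger m6A peak, from 127659981 to 127660480, began 1 base before the 3′ UTR. The smaller, from 127642986 to 127643035, is the 50 bases that start with the first base of the RefSeq transcript, of which the first 30 are printed above. Among all 10290 m6A peaks, 41 (0.398%) began exactly at a RefSeq transcript start of their gene and 197 (1.91%) began within 50 bp of one. Stat3 (chromosome 11, 100886806 to 100939594, minus strand) had a single peak of 75 bases. This peak, from 100904913 to 100904987, lay 65.6% of the way along the gene, introns included.

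**Figure D2:**
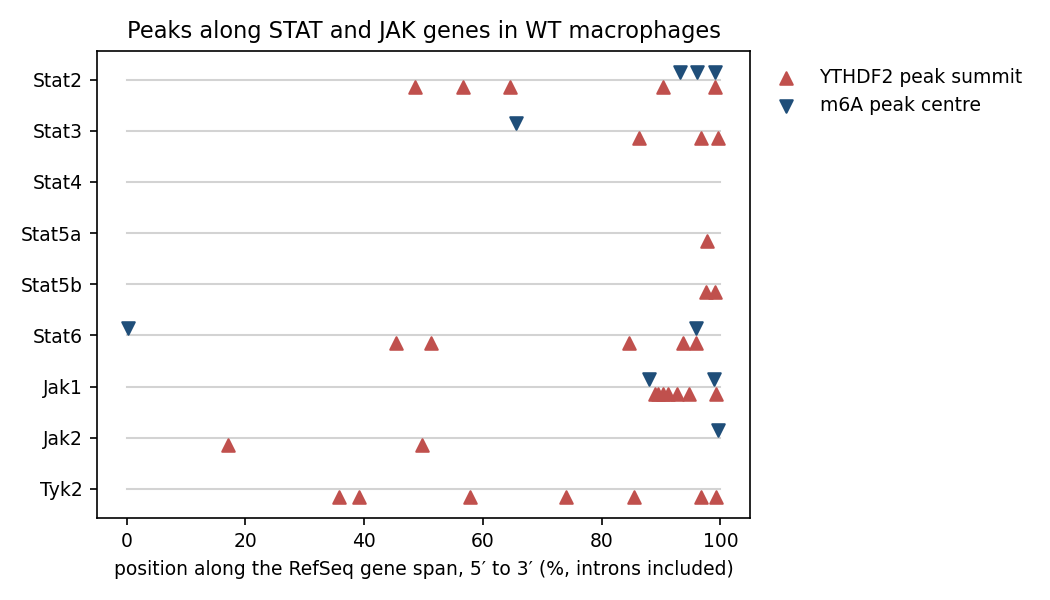
Position of m6A peak centres (downward triangles) and YTHDF2 peak summits (upward triangles) along each STAT and JAK gene in WT macrophages, as a percentage of the RefSeq gene span from 5′ to 3′. The m6A peaks of Stat2, Jak1 and Jak2 lie past 88.0%, Stat6 has 1 peak at each end, and Stat4 has neither kind of peak.

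Of the peaks deposited for YTHDF2, 32 lay in 8 of the 9 members, every member but Stat4, where 64.5% of tested genes had at least 1. In the highest bin of mean count 89.2% of genes had one, and in the lowest, which holds Stat4, 24.5%. Every peak name in this list begins with the text m6a_peak; whether the list draws on the m6A libraries was not tested. It holds 1 set of calls for the WT group, with no strand for the peaks. Jak1 and Tyk2 had the most, 7 peaks each, a number reached by 4.72% of genes in the list. Stat2 and Stat6 had 5 each (reached by 11.9%), Stat3 had 3, Stat5b and Jak2 had 2 each, and Stat5a had 1, beside a median of 2 per gene. The 7 Tyk2 peaks are also listed under 1700084C06Rik, an antisense transcript whose intron spans them.

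The fold enrichment at the summit is the authors' value and was used only to rank peaks within this list. Across all 17843 peaks its median was 3.01, with quartiles of 2.46 and 3.78. Member peaks had a median of 2.71, with 14 of 32 above the median of the list and 4 above its upper quartile. Those 4 were all in kinases: Jak1 at 5.06 and 4.39 and Tyk2 at 4.40 and 3.84. The strongest, in Jak1 from 101161907 to 101162128, exceeded 92.7% of the list and had a −log10 q of 39.8. Among the STATs, Stat6 reached 3.70, Stat5b 3.31, Stat5a 3.24, Stat3 2.76 and Stat2 2.67. The 5 Stat2 peaks, between 1.84 and 2.67, lay in the lowest 35.2% of the list.

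**Figure D3:**
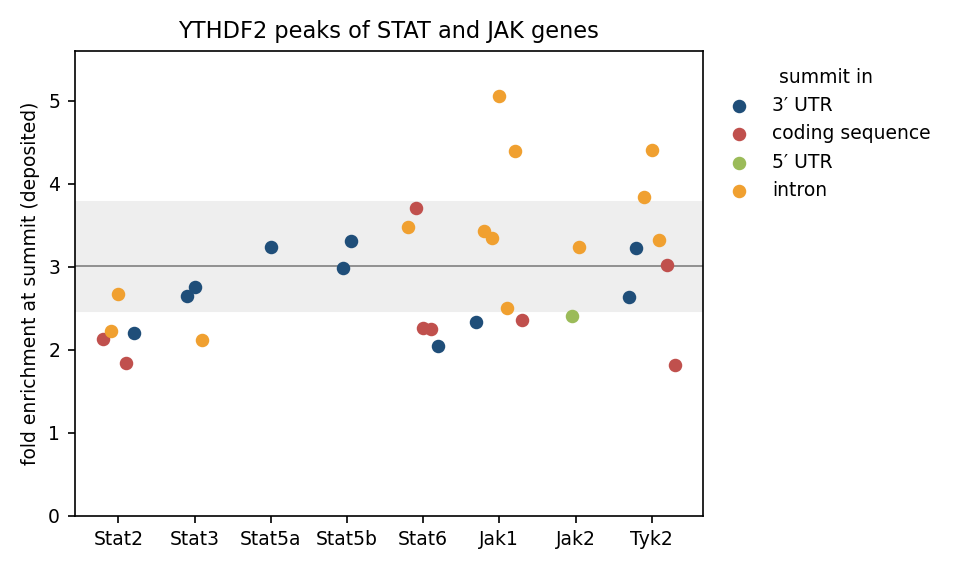
Fold enrichment at the summit, as deposited, of each of the 32 YTHDF2 peaks in the 8 STAT and JAK genes that have one, coloured by the transcript feature that holds the summit; peaks of a gene are in genomic order. The line is the median of all peaks in the list (3.01) and the band its quartiles (2.46 to 3.78). All 5 Stat2 peaks are under the line.

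Summits of member peaks lay in a 3′ UTR for 10 of 32 (31.2%), in coding sequence for 8 (25%), in a 5′ UTR for 1 (3.12%) and in an intron for 13 (40.6%). Over the whole list these shares were 39.2%, 35.7%, 2.02% and 23.1%. The 3 members of the chromosome 11 cluster had mostly 3′ UTR summits. Stat5a had its 1 peak there (100884079 to 100885021, fold enrichment 3.24), Stat5b both of its peaks (100780834 to 100781574 at 2.98 and 100781791 to 100783248 at 3.31), and Stat3 2 of 3 (100886929 to 100888047 at 2.64 and 100888212 to 100888874 at 2.76). Jak2 had no 3′ UTR summit: 1 lay in the 5′ UTR, at 29262205, and the other in an intron.

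The 13 intron summits were found in Jak1 (5), Tyk2 (3), Stat2 (2) and once each in Jak2, Stat3 and Stat6, and all lay close to an exon. Their distance to the nearer exon had a median of 21 bp and ranged from 1 to 109 bp, and 10 of 13 (76.9%) were within 50 bp. In 11 of 13 (84.6%) the nearer exon was the one that follows the intron, on the acceptor side. In Jak1 the 5 summits lay 2, 4, 14, 62 and 109 bp before the exon that follows, and in Tyk2 the 3 lay 13, 21 and 22 bp before it. The same position was usual in the whole list: of 4075 intron summits 63.7% were within 50 bp of an exon and 79.4% were nearer the exon that follows. Peaks that touched both exon and intron made up 26 of 32 in the members (81.2%) and 61.4% of the list. An exon of a transcript that the list does not name counts as intron here.

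m6A and YTHDF2 peaks met in 3 of the 5 members that had both. By position, 6 of the 9 m6A peaks overlapped a YTHDF2 peak of the same gene by at least 1 bp. All 9 lie in genes with a YTHDF2 peak, and among all m6A peaks in such genes the share was 57.5% (44.1% over all m6A peaks). All 3 m6A peaks of Stat2 overlapped 1 long YTHDF2 peak, from 128291127 to 128292746, whose summit was in the 3′ UTR at 128292623. In Stat6 the m6A peak at the start of the 3′ UTR overlapped the YTHDF2 peak from 127660091 to 127660397, and the peak at the transcript start lay 7805 bp from the nearest YTHDF2 peak. Both m6A peaks of Jak1 overlapped one, by 292 and 240 bp. The m6A peak of Stat3 lay 10611 bp and that of Jak2 30059 bp from the nearest YTHDF2 peak of the gene. These distances, like the 7805 bp in Stat6, are along the genome, introns included. Distances along the spliced RNA were not computed. Seen from the other side, 4 of the 32 YTHDF2 peaks overlapped an m6A peak, against 23.0% of the whole list. With the summit required within 100 bp of the m6A peak, 3 of 9 met the rule.

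Tyk2, Stat5a and Stat5b thus had YTHDF2 peaks with no listed m6A peak, and Stat4 had neither. By the authors' deposited table, log2 fold changes of the 5 members with m6A ran from −0.03 (Stat6) to 0.26 (Stat2), and those of the 4 without from −0.36 (Stat4) to 0.09 (Tyk2). In the highest bin of mean count, the median of the authors' deposited table was 0.06 for 1462 genes with m6A and 0.01 for 694 genes without.

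3 of the genes are neighbours on chromosome 11. Stat5b (100780731 to 100859004, minus strand) and Stat5a (100859351 to 100885169, plus strand) are separated by 346 bp, and Stat5a and Stat3 run toward each other with 1636 bp between their RefSeq ends. In the transcripts named in the YTHDF2 list the 3′ UTRs of Stat5a and Stat3 overlap by 71 bp, so reads there belong to either gene unless strand was used in counting, which is unstated. The Stat5a peak stops 77 bp before the overlap. The RNA values of the 3 were −0.01 (Stat5b), −0.15 (Stat5a) and 0.11 (Stat3) in the authors' deposited table. Stat6 and Stat2 share chromosome 10 at a distance of 609510 bp.

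Around the family, 105 of 133 listed pathway genes were tested. By the authors' deposited table, the genes that passed were 10 on the side of Ythdf2 (1.76% of all tested genes were) and 3 on the other (12.4% in both directions, against 2.32% of all tested genes). The share of all tested genes that passed differed by mean count, from 0.371% in the lowest of the 5 bins to 5.33% in the highest. Among the STAT2 (ISGF3) target genes 8 of 18 passed on the side of Ythdf2, and all 18 values were above 0. Their median was 0.30, beside −0.01 for all tested genes and 0.04 for the 25% most abundant genes. All 18 are in the highest bin of mean count, and the list was chosen with earlier results of these data known. The 8 that passed included 3 members of the IFIT family, which bind foreign RNA: the authors' deposited table gave 0.56 for Ifit1, 0.50 for Ifit2 and 0.56 for Ifit3. The others were Cmpk2 at 0.60, Oasl1 at 0.58, Rsad2 (viperin) at 0.53, Isg15, a ubiquitin-like modifier, at 0.49 and Ifi44 at 0.47 by the authors' deposited table, and all 8 had an adjusted p of 0.0283 or less. None of the 8 passed a test for at least 1.2-fold, where Ifit1 had an adjusted p of 0.595 and the other 7 had 1.0. With no filter on low counts Ifi44 had an adjusted p of 0.0699, and with centring one of 0.0624. Usp18, an ISGF3 target that also blocks the type I interferon receptor, was at 0.18 ± 0.11 in the authors' deposited table and did not pass. Stat2 itself was at 0.26, beside the median of 0.30 for all 18 target genes. Cell type markers also differed. Among 10 tested macrophage markers 3 passed, Lyz2 (lysozyme) at −1.49 ± 0.33 with adjusted p 0.00133, Itgam at −0.55 ± 0.11 with 0.000141 and Cd68 at 0.40 ± 0.11 with 0.0221 by the authors' deposited table. The SE of Lyz2 is large for the highest bin of mean count, where the median SE was 0.121. Among 4 tested stromal markers the collagen Col1a1 passed, at 0.56 ± 0.17 with adjusted p 0.0491 by the authors' deposited table, and the list median was 0.41. None of 3 tested neutrophil markers passed. The part of these markers in the values of the ISGF3 and other target lists was not tested.

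**Figure D4:**
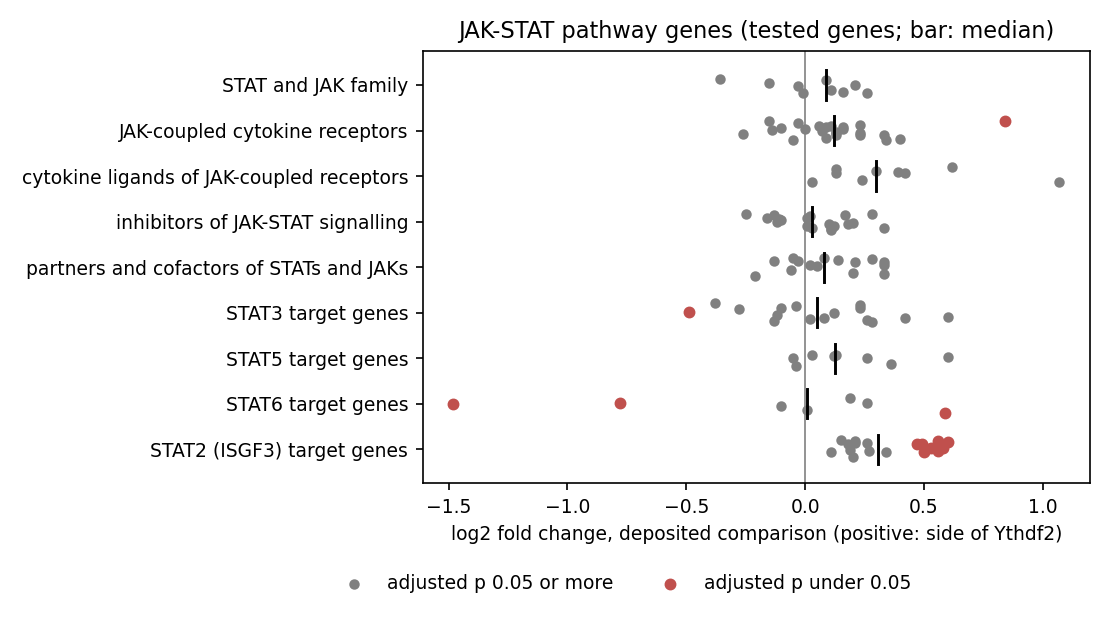
Log2 fold change (horizontal axis, positive on the side of Ythdf2) of the tested genes of each pathway list and of the STAT and JAK family, 1 point per gene, with the median as a bar and genes past the authors' adjusted p of 0.05 in red. The 18 STAT2 (ISGF3) target genes all lie above 0, and no family member is past the threshold.

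Of 24 tested receptors that use these kinases, 1 passed. For this gene, Il7r, the alpha chain of the IL-7 and TSLP receptors, the authors' deposited table gave 0.84 ± 0.14 and an adjusted p of 1.33e-06. The median of the receptors was 0.12. Csf2rb2, a near copy of the GM-CSF receptor chain Csf2rb, had 0.34 ± 0.11 and an adjusted p of 0.0862 by the authors' deposited table, and reads of the pair can be shared. The interferon receptor chains Ifnar1, Ifnar2, Ifngr1 and Ifngr2, named for their role after their values were seen, ranged from −0.14 to 0.13 by the authors' deposited table and none passed. Of 9 tested ligands none passed and all 9 were above 0, the lowest being Csf3 at 0.03 by the authors' deposited table, a value smaller than the shift of 0.04 that centring makes, which turns its sign. The member with the largest Wald statistic was Ebi3, a subunit of IL-27, with 0.39 ± 0.14 and an adjusted p of 0.136 by the authors' deposited table.

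Among the inhibitors 0 of 19 passed, with a median of 0.03. At an unadjusted p under 0.05 by the Wald test there were 2 genes, against 9.99% of all tested genes. Cblb, a ubiquitin ligase, had the largest Wald statistic with 0.33 ± 0.14 and an adjusted p of 0.258 by the authors' deposited table, and the feedback inhibitors Socs1 and Socs3, named for their role, were at 0.01 ± 0.18 and −0.13 ± 0.11. Among 15 partners and cofactors none passed. By the Wald test 4 had an unadjusted p under 0.05, against the same 9.99% of all tested genes. Stam2, an adaptor of the endosomal sorting route, had 0.33 ± 0.13 and an adjusted p of 0.196 by the authors' deposited table.

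Targets of the other STATs had no common direction. Of 16 STAT3 target genes 1 passed, the acute-phase gene Saa3 with −0.49 ± 0.12 and an adjusted p of 0.00655 by the authors' deposited table, and the list median was 0.05. Of 8 STAT5 target genes none passed. At an unadjusted p under 0.05 by the Wald test there were 0, against 9.99% of all tested genes. Ccnd2, a cyclin, was at 0.36 ± 0.20 in the authors' deposited table. Of 7 STAT6 target genes 3 passed. By the authors' deposited table Arg1, the arginase of alternatively activated macrophages, at −1.48 ± 0.37 (adjusted p 0.00627) and the mannose receptor Mrc1 at −0.78 ± 0.21 (adjusted p 0.0178) lay opposite to Ythdf2. The SE of Arg1 is large for its mean normalized count of 3158. In the highest bin of mean count, which holds Arg1, the median SE was 0.121. Klf4, a transcription factor, had 0.59 ± 0.17 and an adjusted p of 0.0299 by the authors' deposited table, and its adjusted p was 0.0738 with no filter and 0.0574 with centring. Against at least 1.2-fold the adjusted p was 0.221 for Arg1 and 1.0 for each of Saa3, Mrc1 and Klf4. The lists share some genes, such as Socs1 and Il4ra.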

How the data were processed

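All libraries are those of the 6 groups above, and 0 of the 3 deposited files hold values per library. Per the file headers, the mean normalized count is a signal averaged by the authors over the m6A input libraries, and the log2 fold change and its standard error, the Wald score, the p-value and the adjusted p-value are theirs, in columns named as DESeq2 names them. The m6A list (exomePeak2, per the labels) has no header. In the YTHDF2 list the authors deposited a fold ratio, a −log10 q and a score in narrow-peak order; which caller was used is unstated. HISAT2, HOMER, ChIPseeker and mm10 appear in the submitters' processing notes without a role.

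Members were matched by symbol. From the deposited values were computed 95% intervals (fold change ± the normal quantile times SE), shares of genes with peaks, overlaps and summit features (3′ UTR, then coding, 5′ UTR, intron), after dropping 3234 repeated rows of 45541. Starts were turned to 1-based: 71.7% of m6A spans were multiples of 25 only when starts were read as 0-based. Python 3.11.15, pandas 2.3.3 and scipy 1.17.1 were used. The recomputed tests were tested on simulated data.

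Members and lists were chosen with earlier results of these data known. Named genes are all members, pathway genes past an adjusted p of 0.05 and, for a list with none, the one of largest Wald statistic. Usp18, Csf2rb2, Csf3, Socs1, Socs3, the interferon receptor chains and the markers with values were named after their values were seen. The design allowed for counts per library; the authors' comparison was used instead. Alternatives were no filter on low counts, the upper 50% of genes by count, centring on the 25% most abundant genes, a test of at least 1.2-fold, gene matching by Ensembl ID, stricter peak thresholds and stricter overlap.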

Additional observations from a re-analysis of the deposited data

How the results depend on the processing

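No paired analysis was possible because the deposited table holds no values per library; for the same reason no library could be left out. No member passed under any of the 4 alternatives to the comparison. The test of at least 1.2-fold could only raise an adjusted p. With no filter the adjustment ran over 27013 genes in place of 10778, and calls over all genes fell to 143 positive and 37 negative. No member changed direction, but only centring alters a fold change, so the other alternatives could not show such a change. The lowest adjusted p of a member was 0.306 in the upper 50% of genes by count (where 7 members were tested), 0.575 with centring, 1.0 with no filter and 1.0 for at least 1.2-fold. Centring moved every value by 0.04 and the positive share of all calls from 76.0% to 66.1%. Asking for at least 1.2-fold left 19 positive and 5 negative genes in place of 190 and 60. In the pathway lists it left 1 positive gene and 0 negative ones, with 0 of the STAT2 (ISGF3) targets, 0 of the STAT3 targets and 0 of the STAT6 targets in either direction. The positive call among STAT6 targets (Klf4) also went to 0 with no filter, with centring and in the upper 50% of genes, where Klf4 and Mrc1 were not among the genes tested and 1 negative call, Arg1, stayed. Member peak counts were 30 of 32 at a fold enrichment of at least 2 and 30 at a −log10 q of at least 5, in 8 genes each. m6A peaks matched by Ensembl ID were the same 9 in 5 genes. The overlap held for 6 m6A peaks at 50% of the shorter peak and for 3 with the summit within 100 bp.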

Other observations

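Peaks in the wider pathway, which no comparison above used, were common. Among tested receptors, 14 of 24 carried an m6A peak and 20 a YTHDF2 peak. Of 19 inhibitors 16 had m6A and 18 a YTHDF2 peak, and of 15 partners and cofactors 10 and 14 did. Ligands had fewer, 2 and 5 of 9. All 18 STAT2 (ISGF3) targets had a YTHDF2 peak and 13 had m6A. Over all tested genes the shares were 45.4% for m6A and 64.5% for YTHDF2, and both rise with mean count. In the highest bin of mean count, which holds all 18 of the STAT2 (ISGF3) targets, they were 67.8% and 89.2%.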
